A study of Mus musculus with 6 samples.

Results

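The genes described here are 10 that build or line the cytoskeleton of a plated hepatocyte: the keratins Krt8 and Krt18, vimentin (Vim), the cytoplasmic actins Actb and Actg1, the tubulins Tuba1b, Tubb2a and Tubb5, the actin-binding peptide gene Tmsb10 and the annexin gene Anxa2. They were chosen by name, as genes held to rise when hepatocytes are put into culture, and make up 10 of the 25184 genes in the count table. Every one of the 10 passed the filter on low counts that left 15105 genes for testing.

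RNA was sequenced from primary mouse hepatocytes of 3 Sucnr1 fl/fl mice (Cre-negative controls) and 3 Hep-Sucnr1 KO mice, which carry the same floxed alleles of the succinate receptor gene together with Alb-Cre +/-, a Cre driven by the albumin promoter and so active in hepatocytes. The animals were fed chow, and the age and sex of those used for sequencing are not given in the sources used here. The cells were isolated from the left lateral lobe by enzymatic digestion and a density gradient. They were kept overnight on collagen in a medium with serum before RNA was extracted. The labels give extraction day 1 for 1 mouse of each genotype (fl/fl 1 and KO 3) and extraction day 2 for the other 2 of each (fl/fl 2, fl/fl 3, KO 4 and KO 5). Days 1 and 2 are dates of extraction and not times in culture. All 6 libraries came from plated cells. Freshly isolated cells were not analysed here, so the rise on plating itself was not measured, and the comparisons below are between genotypes, days and individual cultures.

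Hepatocytes are epithelial cells whose intermediate filaments are built from the paired keratins 8 and 18, while vimentin forms the filaments of mesenchymal and blood-derived cells and appears in epithelial cells that lose their differentiated state. Actin filaments line the bile canaliculi and the cell cortex, and microtubules of alpha- and beta-tubulin carry secretory vesicles. When hepatocytes attach to a flat surface and spread, actin is assembled into stress fibres, and free actin monomers are known to hold back the MRTF co-activators of serum response factor, which binds the CArG box of many actin genes.

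Promoters of 9 of the 10 genes were in the RefSeq promoter table (GRCm38.p6, 250 bases before to 50 after each start), and Actb was not among them. The sequences of 3 are shown. Actg1 was taken because actin genes are known targets of serum response factor. Tubb2a and Tubb5 were taken after their values were seen, because the ratio of these beta-tubulin genes stood apart in KO 4. Whether their promoters bear on that ratio was not tested. Each is given 5′ to 3′ on the gene's own strand (the minus strand for all 3), from 130 bases before the RefSeq start up to the first base of any annotated exon, with matches to the motifs listed below in capitals.
Actg1 (chr11:120348543-120348625): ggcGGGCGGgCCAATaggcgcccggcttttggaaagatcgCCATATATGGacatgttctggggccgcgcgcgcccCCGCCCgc
Tubb2a (chr13:34078009-34078138): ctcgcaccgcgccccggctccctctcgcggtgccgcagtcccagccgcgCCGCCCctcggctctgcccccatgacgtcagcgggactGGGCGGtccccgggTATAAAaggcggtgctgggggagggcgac
Tubb5 (chr17:35838307-35838431): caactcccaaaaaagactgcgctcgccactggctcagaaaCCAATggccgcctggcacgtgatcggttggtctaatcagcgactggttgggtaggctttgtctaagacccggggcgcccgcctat

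The windows of 300 bases were searched on both strands for 5 motifs, each a description of letters and not of binding. The CArG box was in the window of Actg1 alone among the 9 matched genes and in 1.63% of all 32851 windows. The TATA box, written TATAAA, was in the windows of 4 of the 9 genes (Krt8, Vim, Tubb2a and Anxa2) and in 13.6% of all windows. From the RefSeq start, the matches lay at −32 to −27 in Vim, −29 to −24 in Tubb2a and −17 to −12 in Anxa2. Those of Krt8 lay across the start itself. In Krt8 and Vim the 130 bases before the RefSeq start were all in annotated exons of the same gene. The GC box, written GGGCGG, was in those of 6 genes and in 35.7% of all. The CCAAT box was in the windows of 3 genes (Vim, Actg1 and Tubb5) and in 37.4% of all, and the AP-1 site, written TGACTCA, was in that of Anxa2 and in 5.2% of all windows. In the stretches shown, Tubb2a has a TATA box where Tubb5 has none, and Tubb5 has a CCAAT box where Tubb2a has none.

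The library totals lay between 30504248 and 38770694 counts. Sucnr1 itself, the check of the labels, had 258, 118 and 103 counts in fl/fl 1, 2 and 3 and 84, 28 and 5 counts in KO 3, 4 and 5. Every KO library was below every control, and 10.6% of all genes tested did not overlap between genotypes in CPM. Values are given as CPM, counts scaled to library size with TMM factors, and levels of different genes are set side by side only after division by the length of the gene's exons in kilobases. In CPM, Sucnr1 in KO 3 stood at 2.66, not far below fl/fl 3 at 3.40, while KO 4 and KO 5 stood at 0.83 and 0.15. The 10 genes together took 0.728% (KO 4) to 1.14% (KO 3) of a library's counts. With 3 mice a group, an exact permutation test cannot give a p below 0.1.

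Loss of Sucnr1 from hepatocytes went with no measured change in these genes that passed the test. Sucnr1 itself did not pass it either, as the smallest adjusted genotype p over all genes was 0.998 in edgeR's quasi-likelihood test. Between genotypes, 0 of the 10 members passed an adjusted p of 0.05 (edgeR's quasi-likelihood test with extraction day in the model), where 0.0% of the 15105 genes tested did, and 0 passed an unadjusted p of 0.05, where 3.73% of all genes did (563 genes). DESeq2 called 13 genes between genotypes and 0 of the members. The values of the genotypes did not overlap for 0 of the 10 members and for 10.6% of all genes. The median log2 fold change of the members was 0.004, beside 0.003 for all genes, with 5 members positive and 5 negative. On a linear scale the upper limits of the 95% intervals ran from 1.17-fold (Krt8) to 2.7-fold (Tmsb10) and the lower limits from 0.522-fold (Tmsb10) to 0.866-fold (Tubb2a).

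Between days, 0 of the 10 members passed an adjusted p of 0.05, where 0.0% of all genes did, and 0 passed an unadjusted p, where 7.49% did (1132 genes, edgeR). DESeq2 called 227 genes between days and 0 of the members. The keratins had the largest negative log2 fold changes on day 2, −0.32 for Krt8 (95% interval −0.84 to 0.20) and −0.28 for Krt18 (95% interval −0.91 to 0.35), and 8 of the 10 members were negative. A difference in genotype effect between the days passed the test for 0 of the 10 genes (interaction term, adjusted p = 1 for each, edgeR), and 0 of all genes passed an adjusted p of 0.05 and 557 an unadjusted p of 0.05 in that test.

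**Figure D1:**
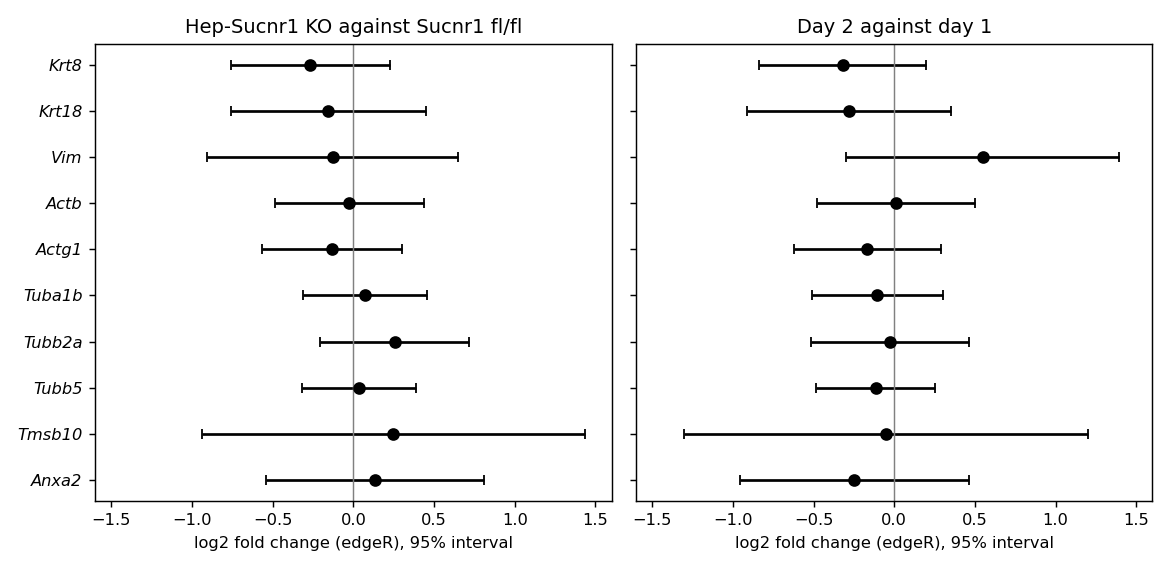
Log2 fold change of each gene from edgeR with its 95% interval, for Hep-Sucnr1 KO against Sucnr1 fl/fl (left) and for day 2 against day 1 (right). All 20 intervals include 0; the widest are those of Tmsb10 and the narrowest those of Tubb5.

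By level, the keratins stood first. The mean over the 6 libraries was 1869.6 ± 414 CPM per kilobase (SD, n = 6) for Krt18 and 1305 ± 255 for Krt8, and Krt18 was above Krt8 in 6 of 6 libraries although their ranges overlapped. The actins followed, with Actg1 at 857 ± 115 and Actb at 825 ± 110.4 CPM per kilobase, and Actg1 was above Actb in 4 of 6 libraries, so these neighbours did not differ beyond their spread. Much of the Actg1 transcript is shared with other genes, as given below, so its level and its place beside Actb are uncertain.

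Tmsb10 came next at 129 ± 57.8 CPM per kilobase, overlapping in range with Tuba1b, which was below it in 5 of 6 libraries. Tuba1b and Tubb2a lay at 62.4 ± 8.29 and 62.0 ± 12.7 CPM per kilobase and did not differ beyond their spread. Tmsb10, Tuba1b and Tubb2a share sequence with other genes, as given below, so their levels and their order are uncertain. Below them were Tubb5 at 24.6 ± 2.86 and Anxa2 at 20.2 ± 5.4, which overlapped.

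Vim was last at 2.90 ± 1.07 CPM per kilobase, and its range overlapped with that of no other member. Only Vim was near the middle of the 15105 genes tested, at percentile 56.69, whereas the other 9 lay between percentiles 88.68 and 99.65. Division by the length of the longest coding transcript instead, an alternative chosen after seeing the data, placed Anxa2 (52.0 CPM per kilobase) above Tubb5 (30.9) and left the rest of the order as it was, with Vim last at 6.28.

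**Figure D2:**
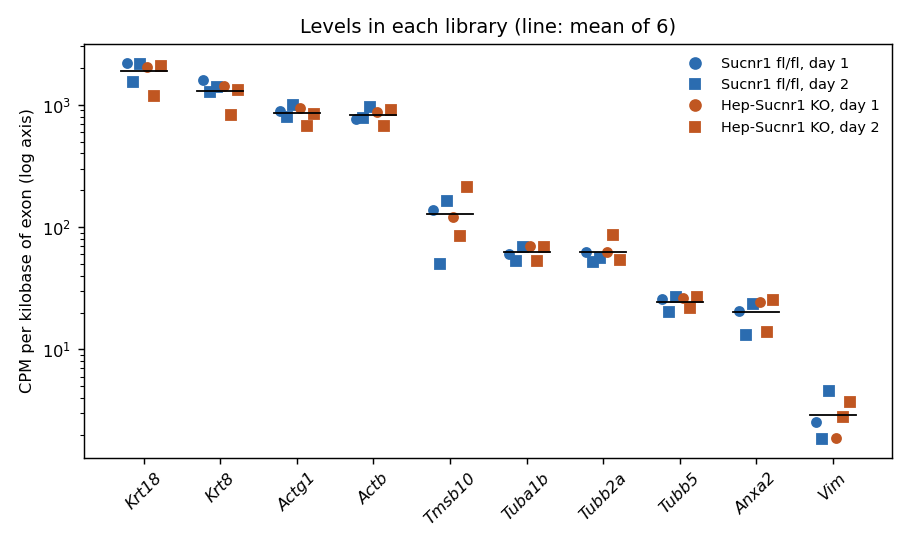
Level of each gene in CPM per kilobase of exon (log axis) in the 6 libraries, with circles for day 1, squares for day 2, blue for Sucnr1 fl/fl, orange for Hep-Sucnr1 KO, and a line at the mean of 6. The genes fall from Krt18 at 1869.6 to Vim at 2.90, and in none are the 2 genotypes apart.

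Krt8 (ENSMUSG00000049382, chr15:101996698-102004482, minus strand) encodes the type II keratin of simple epithelia. Its level was 3089.95, 2505 and 2751 CPM in fl/fl 1, 2 and 3 and 2778, 1622 and 2579.6 CPM in KO 3, 4 and 5. KO 4 was low, the other 5 libraries lay close together, and the genotypes overlapped. The KO mean was 2327 ± 618 CPM against 2782 ± 294 CPM (SD, n = 3 each), a log2 fold change of −0.27 (95% interval −0.76 to 0.23, adjusted p = 0.998, from edgeR's quasi-likelihood test, adjusted by Benjamini-Hochberg over the 15105 genes).

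Krt18 (ENSMUSG00000023043, chr15:102028180-102032027, plus strand) encodes the type I partner with which keratin 8 pairs, and it lies 23697 bases from Krt8, with the 2 genes pointing away from each other. Krt18 stood at 3164, 2204 and 3119.7 CPM in the controls and at 2919, 1706 and 3007 CPM in the KO libraries. As with Krt8, KO 4 was lowest, but fl/fl 2 was also low, and the genotypes overlapped. Its genotype log2 fold change was −0.16 (95% interval −0.76 to 0.45, adjusted p = 0.998, edgeR).

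The balance of the pair was steadier than either gene: the counts of Krt18 per count of Krt8 ran from 0.88 (fl/fl 2) to 1.17 (KO 5) over the 6 libraries, against 1.91-fold between the highest and lowest library for Krt8 and 1.86-fold for Krt18. The mean log2 ratio was 0.01 ± 0.18 in the controls and 0.12 ± 0.09 in the KO libraries (n = 3 each, two-sided exact permutation p = 0.4, adjusted p = 0.9 over 6 ratios). Over the 6 libraries the log2 CPM of the 2 genes had a Pearson r of 0.92, given as a description.

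The keratin partners fixed as a list were other simple-epithelial keratins and the desmosomal and linker proteins that hold keratin filaments, 15 genes of which 10 were tested. Of these, 0 passed an adjusted p of 0.05 in edgeR between genotypes and all 10 had a negative log2 fold change, with a median of −0.31 beside 0.003 over all genes tested. At an unadjusted p under 0.05 there was 1, Dsp (desmoplakin, which ties keratin to desmosomes), at 148, 97.5 and 82.3 CPM in the controls and 82.4, 56.6 and 67.8 CPM in the KO libraries, where KO 3 overlapped with fl/fl 3. Its log2 fold change was −0.64 ± 0.14 (SE, unadjusted p = 0.00258, adjusted p = 0.998, edgeR), and in DESeq2 it passed with an adjusted p of 0.045, the 1 gene of this list to do so. Plec, the linker plectin, stood at 349 to 539 CPM and Pkp2, plakophilin 2, at 92.1 to 147 CPM, and both had their highest value in fl/fl 1. The bile duct keratins were nearly absent, with Krt7 at 0.0 to 0.33 CPM and Krt19 at 0.12 to 0.89 CPM.

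Vim (ENSMUSG00000026728, chr2:13573927-13582826, plus strand) was read at 12.2, 8.78 and 21.7 CPM in fl/fl 1, 2 and 3 and at 8.93, 13.4 and 17.6 CPM in KO 3, 4 and 5. The high libraries were fl/fl 3 and KO 5, both of day 2, the low ones were fl/fl 2 and KO 3, and the genotypes overlapped. The log2 fold change between genotypes was −0.13 (95% interval −0.91 to 0.65, adjusted p = 0.998, edgeR). There were 0.003 to 0.008 counts of Vim per count of Krt18, with no difference in log2 ratio between genotypes that passed the test (mean −7.72 ± 0.48 in the controls and −7.59 ± 0.70 in the KO libraries, n = 3 each, exact permutation p = 0.9, adjusted p = 0.9).

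Between days, Vim had the largest positive log2 fold change of the 10 genes, 0.55 (day 2 against day 1, 95% interval −0.30 to 1.40, unadjusted p = 0.168, adjusted p = 0.862, edgeR), which did not pass the test. This value rested on single libraries: without fl/fl 2 it was 0.77 (unadjusted p = 0.00346, adjusted p = 0.125) and without fl/fl 3 it was 0.24. In the same fit without fl/fl 2, the genotype log2 fold change of Vim was −0.47 (unadjusted p = 0.0266, adjusted p = 0.952), which made Vim the 1 member past an unadjusted p of 0.05 in either comparison.

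Vim was set beside the markers of Kupffer cells, the resident macrophages of the liver. The summed level of the 13 markers was 64.8 to 215 CPM in the controls and 39.8 to 169 CPM in the KO libraries, with 0 of the 13 at a count of 0 in any library. The median of their deviations from each gene's mean was highest in fl/fl 3 (1.30 on the log2 scale) and lowest in KO 3 (−2.03), and over the 6 libraries its Pearson r with the log2 CPM of Vim was 0.83, a description over libraries that share their days and depth. The r of Vim was 0.88 with the markers of neutrophils and lymphocytes and 0.80 with the genes of hepatocyte identity. Of the 13 Kupffer cell markers, 12 had a positive log2 fold change on day 2, and 9 passed an unadjusted p of 0.05, where 7.49% of all genes did (0 an adjusted p of 0.05 in edgeR, 2 in DESeq2). The count past an unadjusted p was 0 of 13 without fl/fl 3, without KO 3 or with the run of library index names, which is partly confounded with genotype, as a further term, and the median log2 fold change of 2.07 was 1.02 without KO 3 and 3.48 without fl/fl 1. Lyz2 stood at 9.03, 7.37 and 30.4 CPM in the controls and 2.06, 20.3 and 16.5 CPM in the KO libraries. Cd68, the 1 marker negative on day 2 (log2 fold change −0.14), took another course. It stood at 39.1, 18.6 and 40.7 CPM in the controls and 29.0, 24.3 and 39.3 CPM in the KO libraries. In KO 3 it made up most of the summed level of 39.8 CPM, so the sums and the median deviations need not run alike. The part of these cells in the level of Vim was not tested, and in bulk RNA a change in the number of cells of a type and a change in RNA per cell cannot be told apart.

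Stellate cell and fibroblast markers, the other mesenchymal list, summed to 13.9 to 43.1 CPM in the controls and 12.6 to 18.4 CPM in the KO libraries, highest in fl/fl 1, and their r with Vim was −0.26. Mesothelial markers were at or near 0 (at most 0.05 CPM summed). Of the other intermediate filament genes and lamins, Lmna (lamin A) stood at 42.0 to 66.7 CPM, and of the 5 tested 0 passed an adjusted or an unadjusted p of 0.05 between genotypes in edgeR.

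Actb (ENSMUSG00000029580, chr5:142903115-142906754, minus strand) encodes beta-actin and is often used to scale other measurements. It was at 2039, 2071 and 2582 CPM in fl/fl 1, 2 and 3 and at 2352, 1784 and 2431 CPM in KO 3, 4 and 5. The values crossed between genotypes, with fl/fl 3 highest and KO 4 lowest. For Actb the genotype log2 fold change was −0.03 (95% interval −0.49 to 0.44, adjusted p = 0.998, edgeR), and between the libraries the gene ranged 1.45-fold.

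Actg1 (ENSMUSG00000062825, chr11:120345690-120348542, minus strand) encodes gamma-actin, the other cytoplasmic actin, and carries the CArG box shown above. Its level was 2379.8, 2129.8 and 2625 CPM in the controls and 2518, 1769.9 and 2253 CPM in the KO libraries. The order of the libraries was close to that of Actb, again with fl/fl 3 highest and KO 4 lowest, and the genotypes overlapped. The log2 fold change was −0.13 (95% interval −0.57 to 0.30, adjusted p = 0.998, edgeR).

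The counts of Actg1 per count of Actb ran from 0.927 (KO 5) to 1.17 (fl/fl 1). This ratio is uncertain in level because Actg1 shares sequence with other genes. The log2 ratio was 0.10 ± 0.11 in the controls and −0.01 ± 0.10 in the KO libraries (n = 3 each, exact permutation p = 0.4, adjusted p = 0.9), a difference of −0.10. The muscle actins Acta1 and Acta2 were at 0.0 to 0.12 CPM, below the filter.

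Of the 15 genes for actin monomer binding and filament turnover, 0 passed an adjusted or an unadjusted p of 0.05 between genotypes (edgeR). Dstn (destrin, which severs filaments) stood at 521, 251 and 497 CPM in the controls and 369.5, 256 and 564 CPM in the KO libraries, low in the libraries fl/fl 2 and KO 4, in which many members were low too. Pfn1 (profilin 1, which loads monomers with ATP) stood at 175 to 210 CPM. Genes of actin bundling, tropomyosins and myosin II gave 3 of 20 below an unadjusted p of 0.05 and lower in KO, with 0 past an adjusted p of 0.05. Among the 3 was Myh9 (the heavy chain of non-muscle myosin II), at 1481, 1077 and 1164 CPM in the controls and 1124, 739 and 951 CPM in the KO libraries, where the genotypes overlapped. For actin nucleation and for actin-membrane linkers and focal adhesions, 0 of 13 tested genes each passed either p between genotypes (edgeR), with the Arp2/3 subunit Arpc2 at 96.2 to 125 CPM and vinculin (Vcl) at 338, 320 and 296 CPM in the controls and 283, 210.3 and 273 CPM in the KO libraries. The regulators Srf and Mrtfa stood at 43.5 to 56.0 and at 28.1 to 41.1 CPM, and of the 3 such genes tested 0 passed either p between genotypes in edgeR.

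Tmsb10 (ENSMUSG00000079523, chr6:72957347-72958748, minus strand) encodes thymosin beta 10, a small peptide that sequesters actin monomers. Its level was 177, 63.8 and 210.3 CPM in fl/fl 1, 2 and 3 and 155, 107 and 271 CPM in KO 3, 4 and 5. Tmsb10 had the widest spread of the 10 genes, 4.26-fold between fl/fl 2 and KO 5, with fl/fl 2 and KO 4 low, fl/fl 3 and KO 5 high, and the genotypes overlapping. The log2 fold change was 0.25 (95% interval −0.94 to 1.43, adjusted p = 0.998, edgeR), an interval that spans from 0.522-fold to 2.7-fold.

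Its close relative Tmsb4x, a thymosin abundant in macrophages and other blood cells, stood at 13.4, 13.3 and 37.2 CPM in the controls and 4.94, 35.0 and 30.2 CPM in the KO libraries, a different course from that of Tmsb10. It was low in KO 3 and high in KO 4, as the Kupffer cell markers were in their median deviation, while Tmsb10 was low in KO 4. The gene was named after its values were seen.

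**Figure D3:**
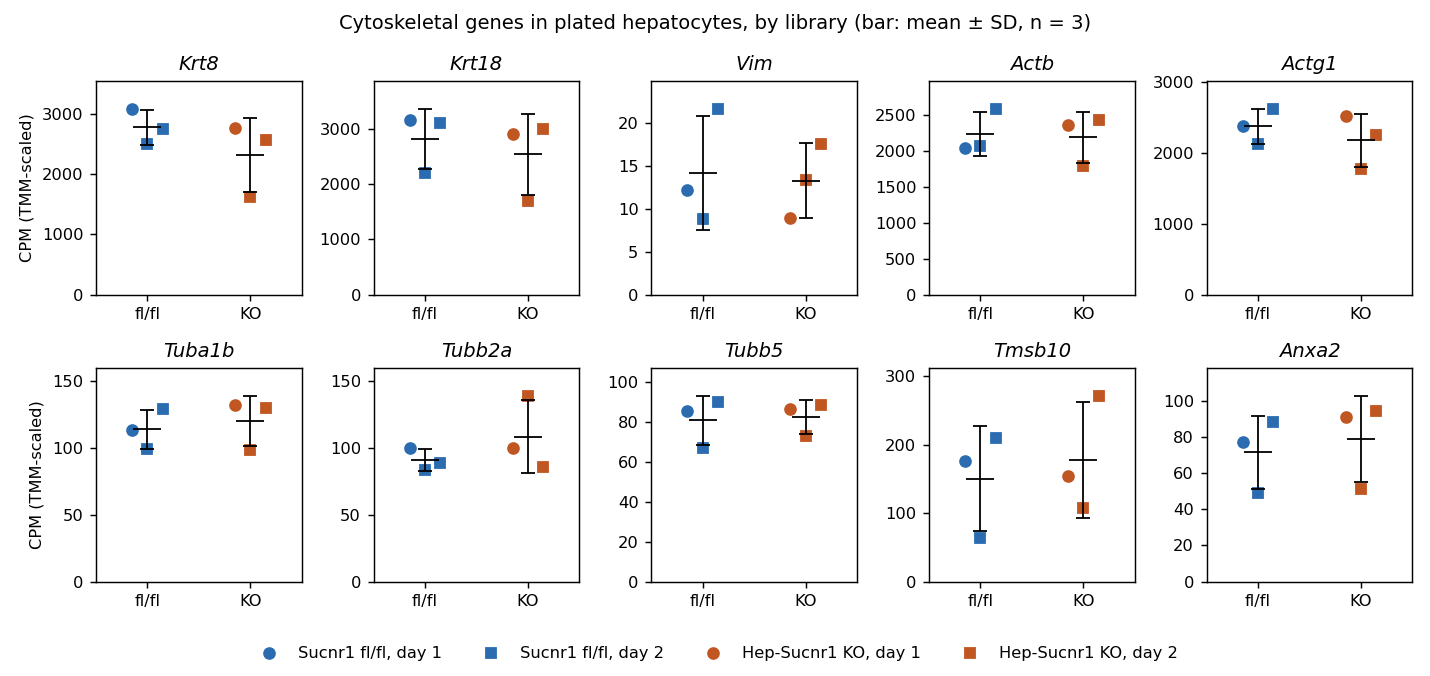
CPM of the 10 genes in each library (axes from 0), with circles for day 1, squares for day 2, blue for Sucnr1 fl/fl, orange for Hep-Sucnr1 KO, and the mean ± SD of the 3 libraries of a genotype. The values of the genotypes overlap for all 10 genes, and Tmsb10 runs from 63.8 to 271 CPM.

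Tuba1b (ENSMUSG00000023004, chr15:98931425-98934565, minus strand) encodes a ubiquitous alpha-tubulin. It was read at 114, 99.1 and 129 CPM in the controls and at 132, 98.4 and 129.9 CPM in the KO libraries. Again fl/fl 2 and KO 4 were low, the other 4 libraries were higher, and the genotypes overlapped. Tuba1b had a genotype log2 fold change of 0.07 (95% interval −0.31 to 0.46, adjusted p = 0.998, edgeR).

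Tubb5 (ENSMUSG00000001525, chr17:35833921-35838306, minus strand) encodes the common beta-tubulin of dividing and undifferentiated cells. It stood at 85.8, 66.8 and 90.0 CPM in the controls and at 86.8, 73.1 and 88.5 CPM in the KO libraries, low in fl/fl 2 and KO 4 and with overlapping genotypes. It was among the steadiest of the 10 genes, with 1.35-fold between the highest and lowest library and a log2 fold change of 0.03 (95% interval −0.32 to 0.39, adjusted p = 0.998, edgeR).

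Tubb2a (ENSMUSG00000058672, chr13:34074274-34078007, minus strand) encodes another beta-tubulin isotype. Its values were 100.2, 83.8 and 89.2 CPM in the controls and 100.4, 139 and 86.2 CPM in the KO libraries. KO 4 was the high library here, the other 5 lay close together, and the genotypes overlapped. For Tubb2a the log2 fold change was 0.26 (95% interval −0.21 to 0.72, adjusted p = 0.998, edgeR) and was −0.001 without KO 4.

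Tubb2a was thus the 1 member highest in KO 4, the library in which 5 of the 10 members were lowest. Over the 6 libraries its Pearson r with each of the other 9 members was negative, from −0.75 with Krt8 to −0.08 with Vim, while Tuba1b and Tubb5 had an r of 0.91 with each other. There were 1.90 counts of Tubb2a per count of Tubb5 in KO 4 and 0.974 to 1.25 in the other 5 libraries. The log2 ratio was 0.18 ± 0.17 in the controls and 0.37 ± 0.50 in the KO libraries (n = 3 each, exact permutation p = 0.9, adjusted p = 0.9), and neither did that of Tuba1b to the sum of Tubb2a and Tubb5 pass the test (log2 ratio −0.60 ± 0.12 against −0.68 ± 0.37, exact permutation p = 0.9, adjusted p = 0.9). Tubb2b, whose transcript shares sequence with Tubb2a, was also highest in KO 4, at 34.9 CPM against 20.7 to 25.8 CPM elsewhere, and was named after its values were seen.

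The other tubulin genes gave 10 tested, of which 0 passed an adjusted p of 0.05 between genotypes (edgeR) and all 10 had a positive log2 fold change, with a median of 0.20 beside 0.003 over all genes. By their names the library indexes form 2 runs, 1 of them held by fl/fl 1 and fl/fl 2 alone, and when this was added to the fit 4 of the 10 were positive and the median was −0.01. Tuba1c, a near twin of Tuba1b, stood at 218, 247 and 286 CPM in the controls and 294, 257 and 279 CPM in the KO libraries, and Tubb4b at 154 to 238 CPM. The 1 gene past an unadjusted p of 0.05 was Tuba8, at 0.16 to 0.63 CPM in the controls and 0.41 to 1.48 CPM in the KO libraries (log2 fold change 1.28 ± 0.31, SE, unadjusted p = 0.0046, adjusted p = 0.998, edgeR). Of the 14 genes of tubulin folding and autoregulation, 0 passed either p, and the chaperonin subunits Cct2 and Cct5 stood at 105 to 116 and 109 to 124 CPM. The microtubule binding proteins gave 0 of 12 past either p.

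**Figure D4:**
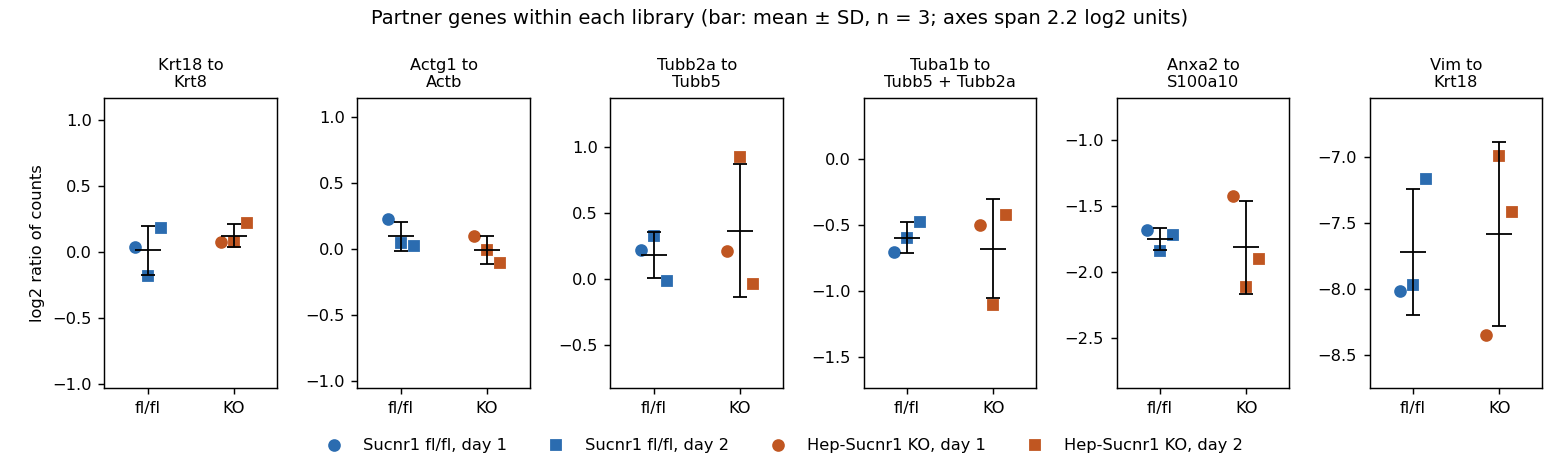
Log2 ratio of the counts of partner genes within each library, with circles for day 1, squares for day 2, blue for Sucnr1 fl/fl, orange for Hep-Sucnr1 KO, and the mean ± SD of 3 libraries; each axis spans the same range of log2 units. Krt18 to Krt8 and Actg1 to Actb stay close to 0, and KO 4 stands apart for Tubb2a to Tubb5 at 0.93.

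Anxa2 (ENSMUSG00000032231, chr9:69453620-69491795, plus strand) encodes annexin A2, which binds membrane and actin and forms a complex with S100A10. Its level was 77.4, 49.2 and 88.1 CPM in the controls and 90.9, 51.4 and 94.4 CPM in the KO libraries. The low libraries were once more fl/fl 2 and KO 4, 1 of each genotype, and the others lay well above them. KO against control gave a log2 fold change of 0.13 (95% interval −0.54 to 0.81, adjusted p = 0.998, edgeR).

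S100a10 stood at 249, 177 and 291 CPM in the controls and 245, 222 and 354 CPM in the KO libraries, so there were 0.231 (KO 4) to 0.372 (KO 3) counts of Anxa2 per count of S100a10. The log2 ratio was −1.75 ± 0.08 in the controls and −1.82 ± 0.35 in the KO libraries (n = 3 each, exact permutation p = 0.8, adjusted p = 0.9). Of the 10 annexins and S100 partners tested, 0 passed either p between genotypes (edgeR), and Anxa5 stood at 137 to 232 CPM.

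For all 10 genes the lowest library was fl/fl 2 (Vim, Tubb2a, Tubb5, Tmsb10 and Anxa2) or KO 4 (Krt8, Krt18, Actb, Actg1 and Tuba1b), where 19.4% and 18.4% of all genes had their lowest value. The median deviation of the members from their own means was −0.24 in fl/fl 2 and −0.33 in KO 4 on the log2 scale, and 0.08 to 0.23 in the other 4 libraries. In KO 4 the keratins fell furthest below their means (−0.62 as the median of both) and the actins less (−0.33), while Tubb2a stood at 0.50 above its own. In fl/fl 2 it was Tmsb10 that lay lowest, at −1.21. The courses over the cultures were not the same for all members: Tubb2a had a negative r with each of the other 9 (−0.75 to −0.08), and the r of Vim with Krt8 was −0.02.

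**Figure D5:**
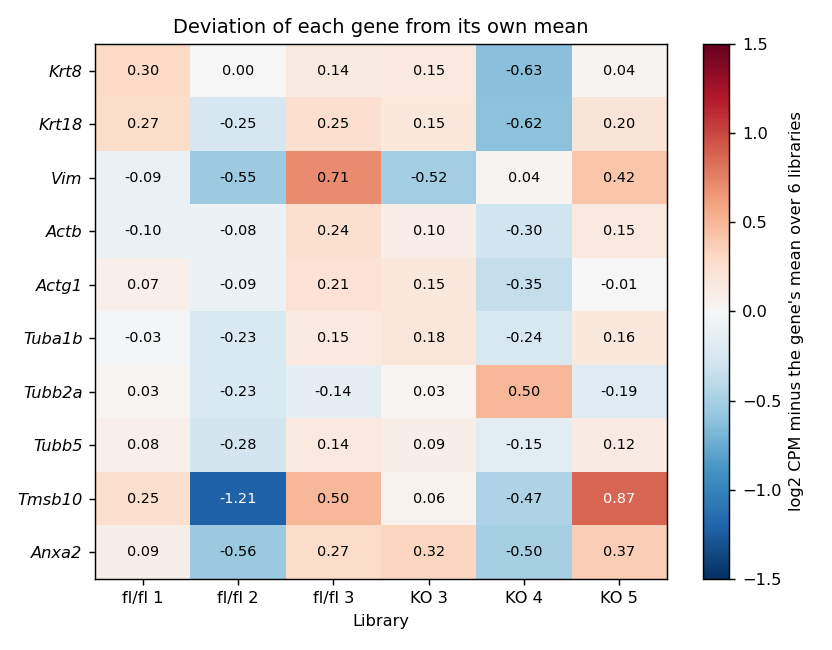
Log2 CPM of each gene minus its mean over the 6 libraries (rows are genes, columns are libraries, red above the mean and blue below). Library fl/fl 2 has no gene above its mean and KO 4 is below it for 8 of the 10 genes, with Tubb2a at 0.50 as the exception beside Vim at 0.04.

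Anxa2, Tuba1b, Tubb5 and Tmsb10 had r between 0.83 and 0.98 with each other over the 6 libraries, and Krt8, Krt18 and Actg1 r between 0.89 and 0.92. These are descriptions over 6 libraries that share depth and scaling, with no test. The 5 genes outside the list whose log2 CPM most resembled the members' median deviation were Ppp1r13b (Pearson r 0.993), Rab11a (0.988), Hmga1b (0.987), Tmem201 (0.986) and Agpat5 (0.985), out of 7056 genes with a mean of at least 10 CPM. Ppp1r13b stood at 103, 74.4 and 113 CPM in the controls and 105, 72.4 and 111 CPM in the KO libraries, with fl/fl 2 and KO 4 low.

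Hepatocyte markers were present in every library. The 15 genes of hepatocyte identity summed to 77312 to 100020 CPM in the controls and 71287 to 100991 CPM in the KO libraries, lowest in KO 4 and next lowest in fl/fl 2, with KO 3 at 77349.9 CPM close by although the members were not low there. Alb (albumin) gave most of this sum, at 59766, 47345 and 66717 CPM in the controls and 46961, 37119.6 and 68925 CPM in the KO libraries, and Apoa2 stood at 2646 to 3142 CPM. Other genes of the list did not follow the sum and were highest in KO 4: Cyp2e1, a cytochrome P450, stood at 3430 CPM there and at 684 to 2078 CPM in the other 5 libraries. Cyp3a11, another cytochrome P450, stood at 2228 CPM in KO 4 and at 990.2 to 1124 CPM elsewhere. The transcription factors Hnf4a (313 CPM, beside 152 to 253) and Cebpa (366 CPM, beside 232 to 355) were also highest in KO 4. The median deviation of the 15 genes was −0.15 in fl/fl 2 and −0.01 in KO 4. Over the 6 libraries their r with the members ran from 0.11 for Tubb2a to 0.85 for Tmsb10.

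Of the markers of bile duct cells, which are rich in keratins, Spp1 and Sox9 made up most of the sum, 363 to 525 CPM in the controls and 441 to 662 CPM in the KO libraries. Their median deviation was lowest in fl/fl 2 (−0.32) and KO 4 (−0.23), and their r with Krt18 was 0.87 and with Tubb5 0.98. Their defining member Cftr was at 0.03 to 0.56 CPM. Sinusoidal endothelial markers summed to 116 to 187 CPM in the controls and 103 to 141 CPM in the KO libraries, with an r between −0.54 and 0.21 with the members, and markers of neutrophils and lymphocytes summed to 1.61 to 12.2 CPM. Dividing cell markers summed to 19.9 to 24.2 CPM in the controls and 25.2 to 29.7 CPM in the KO libraries. Most of this sum was Pcna, at 16.3 to 18.3 CPM, with a genotype log2 fold change of 0.09 (unadjusted p = 0.43, edgeR). Taken singly, 2 of the 8 genes (Cdk1 and Pcna) did not overlap between genotypes, where 10.6% of all genes did not. The genotypes overlapped for Mki67 and Top2a. Of the 8, 2 (Mki67 and Top2a) passed an unadjusted p of 0.05, where 3.73% of all genes did (0 an adjusted p of 0.05, edgeR), and 0 did without fl/fl 1, fl/fl 3, KO 3 or KO 5. The part of any of these cells in the members' levels was not tested.

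Counts of several members are uncertain because their transcripts share sequence with other genes, and how read pairs matching several genes were counted is not given in the sources used here. Of the windows of 100 bases of the longest coding transcript, 69.5% in Tuba1b, 51.0% in Actg1, 36.9% in Tubb2a, 21.5% in Tmsb10, 16.9% in Krt8 and 1.1% in Actb were also found in another gene's transcript. Krt18, Vim, Tubb5 and Anxa2 shared 0 windows. Genes that shared at least 5% of a member's windows are called its copies here. For Tuba1b they took 80.0% of the summed counts, but they include the separate tubulin genes Tuba1c and Tuba1a. Tuba1c alone held 52397 of their 93509 counts. How many read pairs of Tuba1b were counted elsewhere was not tested. The Actg1 copies took 24.8%, nearly all from the pseudogene Gm12715 with 141128 counts in the 6 libraries, and Tubb2b took 19.9% of its sum with Tubb2a. With counts of each gene summed with its copies, an alternative chosen after seeing the data, 0 of the 10 members passed an adjusted or an unadjusted p of 0.05 in either comparison, and the day log2 fold change of Tuba1b went from −0.10 to 0.02. The levels per kilobase and the partner ratios were not worked out again with the copies.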

How the data were processed

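mRNA of cultured primary hepatocytes from 3 control and 3 Hep-Sucnr1 KO mice was sequenced as stranded read pairs. The authors trimmed the reads (Trim Galore 0.6.7), aligned them to GRCm38 (STAR 2.7.10a) and counted read pairs per gene by strand with featureCounts and an Ensembl annotation, and deposited raw counts, not normalized, for 25184 genes.

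Genotype and extraction day were taken from the labels. Genes with a mean DESeq2-normalized count above 5 (15105 genes) were fitted in edgeR 4.0.16 (R 4.3.3) with TMM factors, genotype and day, by its quasi-likelihood test, with p-values adjusted by Benjamini-Hochberg over the 15105 genes. The median biological coefficient of variation of a gene was 0.191. CPM were TMM-scaled, and 0.5 was added before log2 for deviations and correlations. Single ratios were compared by a two-sided exact permutation test in SciPy 1.17.1. In data simulated for these libraries, 100 genes were changed by 1 log2 unit and 96 by 2 among those tested. The genotype test called 34% and 83.3% of them, beside 14 false calls. The adjustment is stricter where few genes change, so these shares may be too high for a single changed gene in the data. Coordinates and lengths came from GENCODE annotation of GRCm38. Alternatives were DESeq2 1.42.0, other scaling, filters and covariates, and leaving out each library.

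The members and the 20 gene lists beside them were chosen with earlier results of these data known. Genes named were the 10 members, of each list the 2 tested genes with the highest CPM per kilobase and the 1 with the smallest genotype p (some only counted in the text), the 5 genes most like the members' median course, and Sucnr1. Krt7, Krt19, Acta1, Acta2, Tmsb4x, Tubb2b, Mki67, Cdk1, Cyp2e1, Cyp3a11, Hnf4a and Cebpa were named after their values were seen. The values of 1 gene that this rule names are not reported here.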

Additional observations from a re-analysis of the deposited data

How the results depend on the processing

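No member passed an adjusted p of 0.05 in edgeR or DESeq2 for genotype or day under any alternative run, but the small log2 fold changes changed sign in several. DESeq2 called 13 genes for genotype and 227 for day, and edgeR with no filter called 122 for day; the cause was not tested. The day log2 fold change of Actb was −0.003 in DESeq2 and with its size factors, −0.011 with library size alone and −0.007 with no filter, which left 1 member positive in each. With the run of library index names in the model, which is partly confounded with genotype, the genotype log2 fold change was −0.173 for Tuba1b, −0.191 for Tubb5, −0.368 for Tmsb10 and −0.32 for Anxa2, with 1 member positive, the day value of Actb was −0.081, with 1 member positive, and 94 (genotype) and 572 (day) genes passed an unadjusted p of 0.05. In the day 2 libraries alone Vim was at 0.025 and Tuba1b at −0.005, and 312 genes passed an unadjusted p. Counts summed with the copies gave Tuba1b a day value of 0.015.

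Leaving out each library in turn, the genotype log2 fold change ran from −0.414 to 0.052 for Krt18, −0.47 to 0.26 for Vim, −0.15 to 0.125 for Actb, −0.027 to 0.208 for Tuba1b, −0.001 to 0.399 for Tubb2a, −0.082 to 0.162 for Tubb5, −0.284 to 0.78 for Tmsb10 and −0.133 to 0.421 for Anxa2. The day value ran from −0.159 to 0.151 for Actb, −0.25 to 0.166 for Tubb2a and −0.492 to 0.293 for Tmsb10. Between 1 member (without fl/fl 2 or KO 5) and 8 (without fl/fl 3) were positive for genotype and between 1 (without fl/fl 3) and 3 for day. From 0 to 1 member passed an unadjusted p in each comparison, the 1 being Vim without fl/fl 2, and 312 (without fl/fl 1) to 832 (without KO 5) genes did for genotype and 573 (without fl/fl 3) to 1513 for day. From 0 to 29 genes passed an adjusted p for day, the 29 without fl/fl 2.

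No paired analysis was possible because the genotypes share only 1 replicate number. The 3 mice a group limit the precision, and genes of few reads, such as Top2a at 18 to 82 counts, carry more counting error than the members.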

Other observations

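The dividing cell markers had a positive genotype log2 fold change for 8 of 8 genes tested, with a median of 0.71, beside 0.003 for all genes, and 8 of 8 stayed positive in each of the 16 alternatives run, with medians from 0.43 to 0.96. The median of 0.71 was 0.44 without fl/fl 1, and 0.43 without KO 3 or in the day 2 libraries alone. Of the 8, 2 passed an unadjusted p of 0.05, where 3.73% of all genes did. None of the 8 did so without fl/fl 1, fl/fl 3, KO 3 or KO 5, in the day 2 libraries alone, with no covariate or with the library index term, and 0 passed an adjusted p of 0.05 in edgeR or DESeq2. Their levels were low: Top2a, a topoisomerase of chromosome separation, stood at 0.47, 1.59 and 1.09 CPM in fl/fl 1, 2 and 3 and at 1.55, 1.71 and 2.49 CPM in KO 3, 4 and 5, and Pcna, a replication factor, at 16.3 to 18.3 CPM in all 6 libraries.

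Between days, the desmosomal genes Dsp and Dsc2 had log2 fold changes, day 2 against day 1, of −0.57 (unadjusted p = 0.00564, adjusted p = 0.501, edgeR) and −0.74 (unadjusted p = 0.00187, adjusted p = 0.405, edgeR). DESeq2 gave Dsc2 an adjusted p of 0.0112. Dsc2 was named after its values were seen.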
